A study of Mus musculus with 6 samples.

Results

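Thermosensitive TRP channels are cation channels of the TRPV, TRPA and TRPM families that open with heat, cold or irritant chemicals, and 9 of their genes were followed here in RNA sequencing (RNAseq) of mouse dorsal root ganglia (DRGs): Trpv1, Trpv2, Trpv3, Trpv4, Trpa1, Trpm2, Trpm3, Trpm4 and Trpm8. They were chosen by name, as the rows of the read count table whose Ensembl mouse gene identifier maps to one of these symbols, and all 9 were found among the 47937 rows. The study compared 3 control mice with 3 Tlx3cko mice, which lack the homeodomain transcription factor Tlx3 in most nociceptors, to learn which DRG transcripts depend on it. The control mice are labelled as wild type and the Tlx3cko mice as Tlx3f/f;SNS-cre, both on the C57BL/6 strain at about 2 months of age and with no treatment given in the labels. The paper calls the first group controls and used Tlx3F/F littermates in behavioural work, so whether the sequenced controls carried the floxed allele is not settled by these sources. The Cre is driven by the promoter of the sodium channel Nav1.8 (also called SNS), so that deletion starts shortly before birth and reaches the majority of nociceptors. The RNA came from whole cervical, thoracic and lumbar ganglia. Tlx3 was therefore spared in cells without the driver, and neurons, glia and connective tissue were measured together.

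A TRP channel subunit has a set of membrane-spanning helices and assembles into a tetramer around a cation pore, and its opening depolarizes the ending of a sensory neuron. Heat and capsaicin open TRPV1, cooling and menthol open TRPM8, and pungent electrophiles such as mustard oil open TRPA1, mostly in different but partly overlapping classes of small DRG neurons. Inflammatory mediators lower the threshold of these channels through receptors that act by phospholipase C and protein kinases.

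The libraries held 13761480, 15006871 and 18775628 counts in control replicates 1, 2 and 3, and 15535247, 11458299 and 15303922 counts in Tlx3cko replicates 1, 2 and 3. Levels are given as normalized counts, which are counts scaled by the TMM method to the mean effective library size of 14974185. Levels of different genes are compared only as normalized counts per kb of exon in the GENCODE M21 annotation of GRCm38. Differences were tested over the 20006 genes with at least 10 counts in total by edgeR's quasi-likelihood test, and a gene passed at a Benjamini-Hochberg adjusted p under 0.05. With 3 libraries against 3, an exact permutation test of a single gene cannot fall below p = 0.1.

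Before the channels, the deleted gene and the tissue were checked. Normalized counts of Tlx3 were 1973, 2256 and 1941 in control, against 1652.5, 1380.4 and 1452 in Tlx3cko replicates 1, 2 and 3. Every Tlx3cko library was below every control library, and the mean was 72.7% of control in the whole ganglion. Counts per gene cannot tell intact transcripts from those of a recombined allele. The log2 fold change was -0.46 (edgeR quasi-likelihood test, Benjamini-Hochberg adjusted p = 0.0122). This call ended when replicate 2 of either group or Tlx3cko replicate 3 was left out (highest adjusted p 0.091 by edgeR) and with the sex of the library as a term (-0.38, adjusted p = 0.223 by edgeR). All 7 markers of DRG neurons were abundant in the 6 libraries, and of these Scn10a, the gene of Nav1.8 itself, passed the threshold (log2 fold change 0.43). By the labels only the Tlx3cko mice carry the Cre driven by its promoter, so for Scn10a the driver and the deletion cannot be told apart. The keratinocyte marker Krt5 had 0 counts in every library and the oligodendrocyte marker Mog had 1 or 2, while Krt10 reached 82 and Aqp4 146 counts. Krt14, also of keratinocytes, had 0, 3 and 28 counts in control replicates 1, 2 and 3, against 0 in each Tlx3cko library (adjusted p = 0.152 by edgeR).

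Control replicates 1 and 2 had 591 and 493 counts of Xist and 0 of Ddx3y, whereas control replicate 3 had 1 count of Xist and 525 of Ddx3y. The Tlx3cko libraries had at most 2 counts of Xist and between 273 and 390 of Ddx3y. Going by these transcripts, control replicates 1 and 2 came from females and the other libraries from males, so each channel is also given with the sex of the library as a term, or as a fold with control replicate 3 as the only control, where that changes the call or the direction. With 1 control the spread comes from the Tlx3cko libraries alone, and no call is rested on that fit. With the sex term the fold depends on the same control library.

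Of the 9 channel genes, 9 were tested and 2 passed the threshold, 1 higher (Trpv1) and 1 lower (Trpm8) in Tlx3cko DRGs. Over all genes tested, 4.25% passed, 1.69% as higher and 2.56% as lower. In 4 of the 9 (Trpv1, Trpv2, Trpv3 and Trpm8) the groups did not overlap, beside 19.7% of all genes tested. At an unadjusted p under 0.05 there were 4, namely Trpv1, Trpv2, Trpa1 and Trpm8, beside 14.5% of all genes tested. The median log2 fold change was -0.10 for the 9 genes and 0.00 for all genes tested. With numbers this small, the shares are a description of 9 chosen genes.

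**Figure D1:**
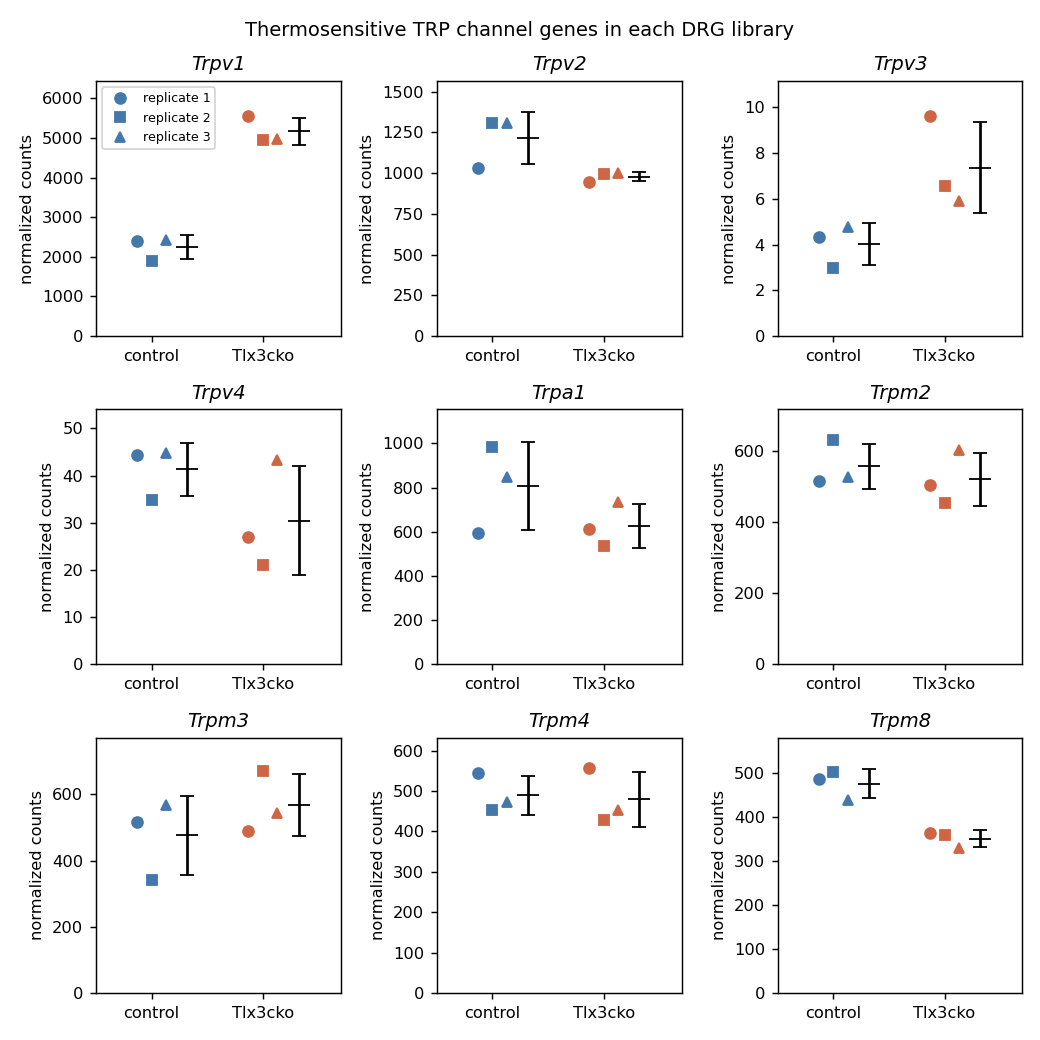
Normalized counts (y axis, from 0, a separate scale for each gene) of the 9 channel genes in 3 control and 3 Tlx3cko DRG libraries. Symbols mark the replicate number, and the bar beside each group is the mean with 1 SD. Trpv1 lies higher in every Tlx3cko library and Trpm8 lower, while Trpv4, Trpa1, Trpm2, Trpm3 and Trpm4 overlap.

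Trpv1 encodes the receptor for capsaicin and noxious heat and is the marker channel of many peptidergic nociceptors. Its normalized counts were 2393, 1888 and 2429.7 in control, against 5567, 4949.6 and 4989 in Tlx3cko replicates 1, 2 and 3. The lowest Tlx3cko library held more than the highest control library by a wide margin. The coefficient of variation was 13.5% in control and 6.69% in Tlx3cko DRGs, above the 2.05% and 1.43% that counting error alone gives. The mean was 231.05% of control, with a 95% interval of the fitted fold from 1.99 to 2.68. The log2 fold change was 1.21 (standard error 0.10, edgeR quasi-likelihood test, Benjamini-Hochberg adjusted p = 1.37e-05). It was 1.09 with control replicate 3 as the only control, and Trpv1 passed the threshold in all 15 alternative fits, of which the one with a single control adds no support. In bulk ganglia, more cells that express a gene cannot be told apart from more RNA per cell, and the same holds for every fall given here.

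Trpm3 encodes a channel opened by heat and by the steroid pregnenolone sulfate. Its normalized counts were 518, 342 and 568 in control, against 489, 672 and 544 in Tlx3cko replicates 1, 2 and 3. The groups overlapped, control replicate 2 being the lowest and Tlx3cko replicate 2 the highest. Its log2 fold change was 0.25 (95% interval -0.13 to 0.62, edgeR quasi-likelihood test, Benjamini-Hochberg adjusted p = 0.599). It was 0.06 without control replicate 2, and with control replicate 3 as the only control the sign turned, at a value of -0.0046. The annotation puts 2.57% of the exonic bases of Trpm3 opposite genes on the other strand (C330002G04Rik and Gm27151), and since the use of strand in counting is not given in the sources used here, reads of these stretches cannot be told apart.

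Trpv2 encodes a relative of TRPV1 found mainly in larger, myelinated sensory neurons and known from cultured cells to open at very high temperature. Normalized counts were 1033, 1310.5 and 1307 in control, against 946, 993 and 998 in Tlx3cko replicates 1, 2 and 3. All Tlx3cko libraries were below the controls, but control replicate 1 stood close to them and away from the other controls. The fitted log2 fold change was -0.32 (standard error 0.10, edgeR quasi-likelihood test, Benjamini-Hochberg adjusted p = 0.128), short of the threshold. Without control replicate 1 it was -0.42 and passed (adjusted p = 0.0185 by the same edgeR test and Benjamini-Hochberg adjustment, in a range of 0.0185 to 0.367 over the alternatives), as it did without the filter on low counts (0.0335 as adjusted p by edgeR). The markers of myelinated neurons, where this gene is best known, were 2 higher and 0 lower of 5 tested by edgeR (4 higher and 0 lower at an unadjusted p under 0.05, 2 higher and 0 lower by DESeq2 and by limma-voom). Without the filter on low counts 3 were higher, and likewise 3 in the fit without control replicate 1. Pvalb lost its call without control replicate 2 or 3 (adjusted p up to 0.0592 by edgeR) and Nefh with the sex term (0.0614).

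Trpa1 encodes the receptor for mustard oil and other irritants. Its normalized counts were 593, 982 and 849 in control, against 612, 535 and 734 in Tlx3cko replicates 1, 2 and 3. Control replicate 1 fell among the Tlx3cko libraries, and the other controls were above all of them. This gave a log2 fold change of -0.36 (95% interval -0.72 to -0.01, edgeR quasi-likelihood test, Benjamini-Hochberg adjusted p = 0.333). The value moved with the controls used. Without control replicate 1 it was -0.54 and passed (adjusted p = 0.0402 by the same edgeR test and Benjamini-Hochberg adjustment, in a range of 0.0235 to 0.733 over the alternatives, the lowest without the filter on low counts), and without control replicate 2 it was -0.20. The control replicates of Trpa1 varied by a coefficient of 24.5%, against 3.4% from counting error alone.

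Trpm8 encodes the receptor for cold and menthol, which marks a small class of thin sensory neurons. It had 450, 502 and 549 counts in control, against 377, 273 and 333 counts in Tlx3cko replicates 1, 2 and 3, or 486, 501 and 438 against 363, 358 and 328 after normalization. The groups did not overlap, and control replicate 3, the male one, was the lowest of the controls. The mean was 73.6% of control and the log2 fold change -0.44 (standard error 0.11, 95% interval -0.69 to -0.20, edgeR quasi-likelihood test, Benjamini-Hochberg adjusted p = 0.0462). This call was lost when any of the 6 libraries was left out, with a log2 fold change between -0.50 and -0.39 and adjusted p between 0.0532 and 0.210 by the same edgeR test. With the sex of the library as a term it was -0.33 (adjusted p = 0.475 by that edgeR test, in a range of 0.0196 to 0.475 over the alternatives), and for this call the genotype and the sex of the control libraries cannot be told apart. Of the exonic bases of Trpm8, 8.199% lie opposite 4930453O03Rik on the other strand. That gene had 258, 274 and 355 counts in control, against 163, 205 and 234 in Tlx3cko replicates 1, 2 and 3, and reads of the shared stretch cannot be assigned to a strand here.

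The other markers listed for cold-sensing neurons, Foxp2, Cdh8 and Rxfp1, did not pass by edgeR over the 20006 genes, and 1 was lower and 1 higher at an unadjusted p under 0.05. DESeq2 called 1 of the 3 as higher and limma-voom called 0. Cdh8 had a log2 fold change of 0.52 and Rxfp1, with at most 22 counts in any library, of -1.66, neither past the threshold (adjusted p = 0.0728 and 0.196 by edgeR), though Cdh8 passed by edgeR without the filter on low counts (0.0126).

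Trpv3 and Trpv4 encode warm-activated channels best known from skin keratinocytes. Trpv3 was near the limit of detection, with 4, 3 and 6 counts in control, against 10, 5 and 6 in Tlx3cko replicates 1, 2 and 3. Although the groups did not overlap after normalization (4.32, 2.99 and 4.79 against 9.62, 6.56 and 5.90), counting error is large at this depth and the 95% interval of the log2 fold change ran from -0.73 to 2.42. Trpv4 had 44.3, 34.9 and 44.7 normalized counts in control, against 26.9, 21.0 and 43.3 in Tlx3cko replicates 1, 2 and 3. Tlx3cko replicate 3 was at the level of the controls and the other Tlx3cko libraries were below them. Its log2 fold change was -0.43 (95% interval -1.15 to 0.30), and it was -0.22 without Tlx3cko replicate 2 and -0.77 without Tlx3cko replicate 3. Neither gene passed the threshold. For Trpv3 a difference was not detectable at this depth, and the Tlx3cko replicates of Trpv4 varied by a coefficient of 38%, beyond the 18.5% of counting error.

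Trpm2, a channel gated by ADP-ribose and calcium that takes part in warmth sensing, had 515, 629 and 526 normalized counts in control, against 504, 453 and 600.3 in Tlx3cko replicates 1, 2 and 3. The groups overlapped over most of their range. The log2 fold change was -0.10, and its 95% interval of -0.37 to 0.18 corresponds to a fold between 0.771 and 1.13. Stretches of at least 100 bases at 98% identity were found between Trpm2 transcripts and those of 6 other genes, so a part of its reads may be uncertain.

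Trpm4, a calcium-activated channel that passes monovalent cations and amplifies depolarization, had 544, 453 and 472 normalized counts in control, against 556, 429 and 453 in Tlx3cko replicates 1, 2 and 3. Replicate 1 was the highest of each group, and the groups covered nearly the same range. The log2 fold change was -0.03 with a 95% interval of -0.30 to 0.25, and its sign was not fixed, being positive with control replicate 3 as the only control (0.02) and without control replicate 1 (0.05).

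**Figure D2:**
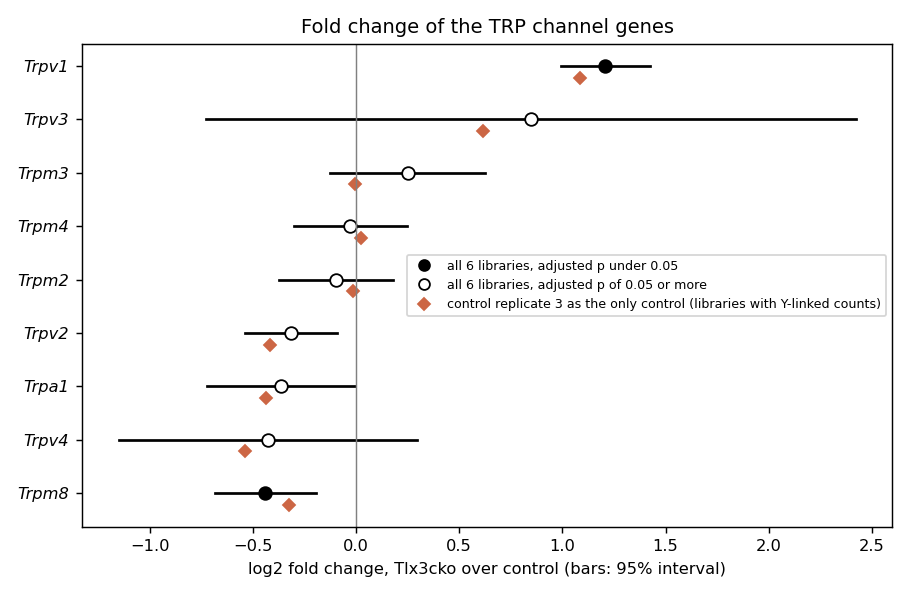
Log2 fold changes of Tlx3cko over control (x axis) for the 9 channel genes. Circles are the fit with all 6 libraries, filled where the adjusted p was under 0.05, with their 95% intervals as bars, and diamonds the fit with control replicate 3 as the only control. Trpv1 lies near 1.21 in the first fit and 1.09 in the second, and Trpm8 moves from -0.44 to -0.33.

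In the GRCm38 annotation the 9 genes lie on 6 chromosomes, and each is spliced. Of the TRPV genes, Trpv2 lies at chr11:62574486-62600515 (plus strand, 14 merged exons), Trpv3 beside Trpv1 on the same chromosome, and Trpv4 at chr5:114622152-114658421 (minus strand). Trpa1 (chr1:14872648-14918862, minus strand, 27 merged exons) and Trpm8 (chr1:88277661-88389293, plus strand, 31 merged exons) share chromosome 1. Trpm2 lies at chr10:77907722-77970563 (minus strand), Trpm3 at chr19:22139046-22995410 (plus strand) and Trpm4 at chr7:45302632-45333780 (minus strand). Trpm3 has the most exonic sequence, 24437 bases, and Trpv1 the least, 3681 bases, which is why levels are compared per kb. On either strand Trpv1, Trpv2, Trpv3, Trpv4, Trpa1 and Trpm4 share no exonic base with another gene.

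Set on a common scale of normalized counts per kb, the 9 genes covered a wide range of levels. In control DRGs Trpv1 was the highest at 608 ± 82.2 per kb (SD, n = 3), followed by Trpv2 at 271 ± 35.5 and Trpa1 at 189.5 ± 46.5, and these last overlapped. Trpm8 was next at 100.3 ± 6.93 per kb, then Trpm4 at 45.2 ± 4.44 and Trpm2 at 44.7 ± 5.07, which overlapped. Trpm3 at 19.5 ± 4.86, Trpv4 at 10.1 ± 1.35 and Trpv3 at 0.69 ± 0.16 per kb closed the order without overlap between neighbours. Trpv1 stood at percentile 92.7 of the levels per kb of all genes tested, Trpm8 at 66.0 and Trpv3 at 2.48.

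The order was the same in Tlx3cko DRGs, with Trpv1 at 1404 ± 93.9 per kb (SD, n = 3) and Trpv3 at 1.26 ± 0.34. Trpv2 (218 ± 6.40 per kb) and Trpa1 (147 ± 23.5 per kb) no longer overlapped there, and Trpm4 and Trpm2 still did. Trpv1 made up 52.2%, 40.8% and 48.4% of the summed level per kb of the 9 genes in control replicates 1, 2 and 3, and 73.3%, 71.6% and 69.7% in the Tlx3cko replicates. The channel set of the mutant ganglia was thus weighted towards Trpv1 in every library. The summed level was 1289 ± 65.1 per kb in control and 1961 ± 94.6 per kb in Tlx3cko DRGs.

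The replicates of a genotype did not vary alike in the 9 genes. The coefficient of variation of Trpm8 was 6.9% in control and 5.46% in Tlx3cko DRGs, close to the 4.47% and 5.52% that counting error alone gives at its depth. For Trpm3 it was 24.9% and 16.5%, several times the counting error of 4.42% and 4.37%. Trpv3 varied by 23.1% and 27%, below a counting error of 48% and 37.8%, so its replicates carry no sign of a spread beyond counting. Trpa1 and Trpm3 were thus the channels with the least even controls, and their fitted changes had the widest errors after Trpv3 and Trpv4.

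Ratios between channels, taken within a library, do not depend on its size. Per kb, Trpv1 exceeded Trpm8 by a ratio of 6.33, 4.85 and 7.13 in control and of 19.7, 17.8 and 19.6 in Tlx3cko replicates 1, 2 and 3. Trpv1 exceeded Trpa1 per kb by 4.68, 2.23 and 3.32 in control and by 10.5, 10.7 and 7.87 in the Tlx3cko replicates. The ratio of Trpv1 to Trpv2 per kb was 2.82, 1.76 and 2.26 in control and 7.17, 6.07 and 6.09 in the mutant libraries. None of these ratios overlapped between the genotypes (an exact permutation test of 3 against 3 gives at best p = 0.1). Each has Trpv1 as its numerator, and Trpv1 did not overlap by itself, so the ratios are not comparisons separate from its rise.

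Trpv1 (ENSMUSG00000005952, chr11:73234292-73261242, plus strand) and Trpv3 (chr11:73267388-73300363, plus strand) are neighbours, and this allowed the rise of Trpv1 to be set beside the genes around it. Of 12 protein-coding genes within 100 kb, 11 were in the count table and 9 were tested. Of these, 0 passed by edgeR, DESeq2 or limma-voom, and 0 had an unadjusted p under 0.05 by edgeR. Over all genes tested, 4.25% passed by edgeR and 14.5% had an unadjusted p under 0.05, so 0 of 9 is a description only. Itgae, Haspin and Trpv3 had at most 10 counts in any library, where a change could hardly have been called. Shpk, directly upstream, had a log2 fold change of -0.15 and Ctns, next to it, of 0.25. P2rx5, an ATP receptor gene of sensory neurons, had a log2 fold change of 0.19 and Tax1bp3 of -0.23. Among the measured genes of this stretch, Trpv1 was the one past the threshold.

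**Figure D3:**
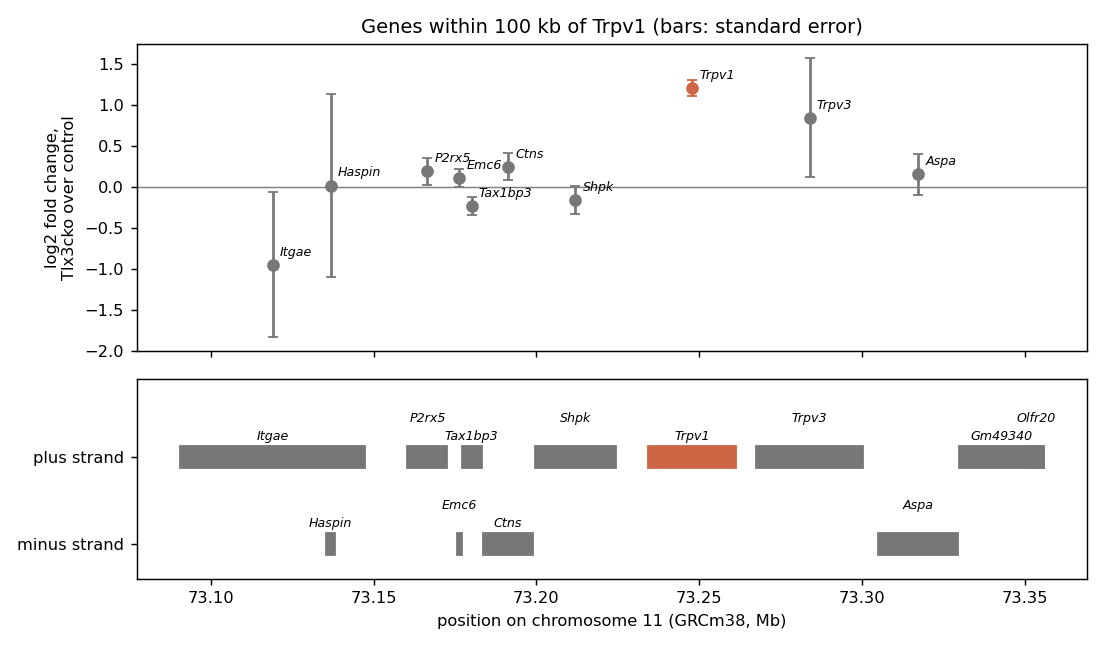
Genes of the count table within 100 kb of Trpv1 by their position on chromosome 11 in Mb (x axis), as boxes on their strand in the lower panel. The upper panel gives the log2 fold change of each tested gene with its standard error. Trpv1 lies at 1.21, and none of the 9 tested neighbours passed the threshold.

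Promoter windows from RefSeq on GRCm38.p6, reaching from 250 bases before to 50 after a transcript start, were present for 7 of the 9 channel genes, and Trpa1 and Trpm4 had no entry. Tlx3 is a homeodomain protein, and TAAT, the usual core of homeodomain sites in general, was counted on both strands (TAAT or ATTA, overlaps allowed). A motif of Tlx3 itself was not used, so these matches are not a count of Tlx3 sites. The windows of the 2 genes past the threshold are shown to compare them, with matches in capitals, in the direction of the gene. The Trpm8 window (chr1:88306485-88306784, plus strand, inside the span the GENCODE annotation gives to the gene) held 3 matches in 1 run, and the Trpv1 window (chr11:73233899-73234198, plus strand, just upstream of the GENCODE start) held 0.
Trpm8: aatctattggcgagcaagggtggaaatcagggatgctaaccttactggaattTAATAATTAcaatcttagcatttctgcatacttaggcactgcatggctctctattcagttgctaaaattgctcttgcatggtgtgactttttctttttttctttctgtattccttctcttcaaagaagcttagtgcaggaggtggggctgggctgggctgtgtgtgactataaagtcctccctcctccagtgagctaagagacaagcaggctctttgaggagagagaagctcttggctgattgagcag
Trpv1: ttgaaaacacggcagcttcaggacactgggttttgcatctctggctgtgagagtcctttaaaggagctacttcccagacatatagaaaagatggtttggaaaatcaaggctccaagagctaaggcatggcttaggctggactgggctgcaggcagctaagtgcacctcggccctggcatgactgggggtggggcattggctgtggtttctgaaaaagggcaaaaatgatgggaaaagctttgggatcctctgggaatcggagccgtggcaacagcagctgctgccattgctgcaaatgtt
At least 1 match was present in 58.0% of all 32851 windows, with a median of 1. Trpv3 had 3 matches, Trpv4 and Trpm2 had 0, the 3 windows of Trpv2 had 2, 2 and 1, and the 2 windows of Trpm3 had 0 and 1. A match describes the letters only, and binding of Tlx3 was not measured.

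The patterns most like that of Trpv1 over the 6 libraries, among 13373 genes whose mean normalized count was 50 or more, were those of Ina (Pearson r 0.997), Kcng4 (0.996), Casc4, Tagln2 and Tmem132b, on log2 normalized counts. Kcng4 encodes a modulatory potassium channel subunit and Ina a neuronal intermediate filament. For Trpm8 they were Acbd4 (0.998), Gm527, Tox2, Gpr37 and Mrgpra3. Of these, Gm527 (adjusted p = 0.0504 by edgeR) and Gpr37 (0.101) did not pass, Acbd4 lost its call without control replicate 2 or Tlx3cko replicate 3 (up to 0.0737) and with the sex term (0.246), and Tmem132b with the sex term (0.0571). Nothing about shared control follows from such likeness.

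Of 19 other TRP genes, 14 were tested, with 3 lower, 0 higher and a median log2 fold change of -0.21. At an unadjusted p under 0.05, 5 were lower and 1 higher, and DESeq2 and limma-voom each called 3 lower and 0 higher. Trpc6, a diacylglycerol-activated channel, had 258, 291 and 387 counts in control, against 135, 78 and 94 in Tlx3cko replicates 1, 2 and 3. All its Tlx3cko counts lay well below all control counts. The log2 fold change of Trpc6 was -1.43 (edgeR quasi-likelihood test, Benjamini-Hochberg adjusted p = 0.000184). Trpm6, a magnesium channel, had 24, 40 and 59 counts against 3, 4 and 5, with a log2 fold change of -3.10. Trpc6 and Trpm6 passed with each library left out and with the sex term. Trpc2, Trpv5 and Mcoln3 had 0 counts in every library.

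The genes that partner or modulate the channels were 25, all tested, with 3 lower and 3 higher. Whrn, which encodes the scaffold protein whirlin, had 721, 650 and 880 counts in control, against 3271, 2660 and 3341 in Tlx3cko replicates 1, 2 and 3. Every mutant library was above every control, at a log2 fold change of 2.22 (standard error 0.09). Plcb1, a phospholipase C, rose with a log2 fold change of 1.17, whereas the isoform Plcb3 fell (-0.68). The protein kinase C genes Prkcd and Prkca fell, with log2 fold changes of -0.92 and -0.40, and Prkca lost its call without control replicate 3 or Tlx3cko replicate 3, with adjusted p up to 0.0714 by edgeR's test. Tmem100, an adaptor between TRPV1 and TRPA1, rose with a log2 fold change of 0.67, but lost its call without control replicate 2 (0.63, adjusted p = 0.0761 by edgeR's test) and with the sex term (0.62, adjusted p = 0.225). Pirt, which binds TRPV1 and TRPM8, had a log2 fold change of -0.02 with a standard error of 0.07.

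Receptors through which mediators sensitise these channels gave 10 lower and 4 higher of 25 tested, with a median log2 fold change of -0.24, the same with F2rl1 at its lower bound. With the sex of the library as a term, 8 were lower and 2 higher, and the lower ones numbered 5 without Tlx3cko replicate 2 and 6 without control replicate 2 or Tlx3cko replicate 3. Gfra3, the receptor for artemin, had 722, 662 and 1129 counts in control, against 2754, 1831 and 2898 in Tlx3cko replicates 1, 2 and 3. Its mutant counts were all above the controls, like those of Trpv1, and the log2 fold change was 1.75 (standard error 0.11). Large falls were measured for Mrgpra3, Cysltr2, Hrh1 and Mrgprd, with log2 fold changes of -4.03, -3.50, -3.01 and -1.81. F2rl1 had 30, 18 and 2 counts in control, against 0 in every Tlx3cko library, and control replicate 3 was itself under the limit of 3 counts that a 0 allows, so no fold is given. Its call held in 1 of the 6 fits with a library left out. The call of F2rl1 also ended with the sex term (adjusted p = 0.538 by edgeR) and by limma-voom (adjusted p = 0.245).

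Among 17 other tested channels of temperature signalling, 1 was lower and 3 were higher. The sodium channel gene Scn11a fell (log2 fold change -0.79, standard error 0.08) and Scn10a, whose promoter drives the Cre of the Tlx3cko mice, rose, at 0.43. The rise of Kcnq3 (0.38) lost its call when replicate 2 or 3 of either group was left out, with adjusted p up to 0.165 by edgeR's test, with the sex term (0.201) and with the replicate block (0.0785). In each of these fits the higher genes of this list numbered 1, and they numbered 5 without the filter on low counts.

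Markers of neuron classes were counted as well. Of 6 peptidergic markers, 3 were higher and 0 lower by edgeR (0 lower also at an unadjusted p under 0.05 and by DESeq2 and limma-voom), with summed normalized counts of 23673, 24337 and 22685 in control, against 40517, 37110 and 39166 in Tlx3cko replicates 1, 2 and 3, Calca being the most abundant. All 6 markers of MrgprD non-peptidergic nociceptors were lower, with sums of 32133, 39446 and 40764 against 24552, 23570 and 22121, Ret being the most abundant. Ret lost its call when replicate 2 or 3 of either group was left out (adjusted p up to 0.186 by edgeR) and with the replicate block (0.0671). Pruriceptor markers were lower in 5 of 6, while Mrgprx1 had a log2 fold change of 0.95 (adjusted p = 0.0798 by edgeR and 0.29 by DESeq2, but 0.0275 by limma-voom, and by edgeR 0.274 with the sex term, 0.00488 with the replicate block, 1.05e-08 without the filter on low counts and 0.00153 without control replicate 1), and those of C-LTMRs, low-threshold touch fibres, in 3 of 3. Trpv1 and the peptidergic sum were both higher in every Tlx3cko library than in every control, which restates the genotype difference. Within control their order over the replicates was opposite, and within Tlx3cko it was the same. By staining, the paper placed the gain of TRPV1 protein mainly in non-peptidergic neurons marked by IB4. The part of these classes in the values of the channels was not tested.

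Markers of tissue around the neurons also differed between libraries. Of 5 skeletal muscle markers, 1 was higher (Myh4, also the most abundant), with summed normalized counts of 1567, 495 and 102 in control, against 2785, 2455 and 1323 in Tlx3cko replicates 1, 2 and 3, and none was at 0. Myh4 missed the threshold by DESeq2 (adjusted p = 0.0639) and when control replicate 2 was left out (0.0611 as adjusted p by edgeR). The muscle markers past the threshold numbered 5 without control replicate 1 or without the filter on low counts, 4 with the sex term and 3 with the replicate block. Of 5 fibroblast markers, 3 were lower, with sums of 4279.6, 4791 and 4489 against 3510, 3312 and 3679, Dcn being the most abundant. The fibroblast calls numbered 0 without Tlx3cko replicate 2 and with the sex term, 1 with any other library left out, and 2 with the replicate block. Their highest adjusted p by edgeR was 0.201 without Tlx3cko replicate 2 and 0.512 with the sex term. Of the 5 endothelial markers 1 was higher, Pecam1, a call that ended when control replicate 3 or Tlx3cko replicate 2 or 3 was left out (adjusted p up to 0.0991 by edgeR) and with the sex term (0.0583). Markers of satellite glia, Schwann cells, leukocytes, mast cells, blood, keratinocytes and spinal cord gave 0 calls by edgeR over the 20006 genes and all 6 libraries, with at most 2 of a list at an unadjusted p under 0.05. DESeq2 called 2 satellite glia markers as higher and 2 Schwann cell markers (1 higher, 1 lower), and limma-voom 1 Schwann cell marker. Without the filter on low counts, edgeR called 1 satellite glia marker as higher, 1 Schwann cell marker as higher and 1 as lower, and as lower 1 marker each of leukocytes, mast cells and keratinocytes and 2 of blood. With the sex term, edgeR called Pmp22 of the Schwann cell list as lower (adjusted p = 0.0314). With 1 library left out, edgeR called Pmp22 as lower without Tlx3cko replicate 1 (adjusted p = 0.0394), and the Schwann cell marker Prx as higher without control replicate 1 (0.00812), the leukocyte marker Itgam as lower without control replicate 3 (0.0236) and the blood marker Hba-a1 as lower without control replicate 2 (0.0429). The part of muscle and connective tissue in the levels of the channels was not tested.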

How the data were processed

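The study sequenced DRG RNA of 3 control and 3 Tlx3cko mice from NEBNext Ultra libraries. Per the labels, reads were aligned to mm10 with STAR 2.5.2a (submitters' processing notes), and the authors deposited raw counts per gene, without normalization. The counting program, annotation release and use of strand are not given in the sources used here. Of 47937 rows, 47729 carry Ensembl identifiers (47224 have a symbol) and 208 are other loci. R 4.3.3 with edgeR 4.0.16 was used for TMM factors, a filter of at least 10 counts in total and the quasi-likelihood test with Benjamini-Hochberg adjustment over all genes tested. The procedure was tested on simulated data. Alternatives used DESeq2 1.42.0, limma-voom (limma 3.58.1), other factors and filters, the replicate number as a block, the sex of the libraries, and each library left out. Shared sequence was searched with blastn 2.17.0+. Named were all 9 channels, Tlx3, up to 6 genes past the threshold per pathway list by absolute log2 fold change, protein-coding genes within 100 kb of Trpv1, and the 5 genes most alike in pattern to each channel past the threshold. Genes named outside this rule were chosen after their values were seen, and some genes the rule covers are not reported here. The members and lists were chosen with earlier results of these data known. The paper gives n = 3 for each genotype, but the labels do not say that each library is 1 mouse. The p-values therefore measure the spread between libraries, whose same-genotype chi-square per degree of freedom was 4.32 to 10.1. Marker lists covered neuron classes (7 lists), glia, leukocytes, mast cells, endothelium, fibroblasts, keratinocytes, blood, muscle and spinal cord.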

Additional observations from a re-analysis of the deposited data

How the results depend on the processing

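The count of channel genes past the threshold was 2. It was 4 without a filter on low counts, where Trpv2 and Trpa1 passed too, and 1 with the sex of the library as a term or with male libraries only (1 control, so without spread among controls), and it ranged from 1 to 3 with each library left out. For all genes the count of 851 moved to 1529 without the filter, to 487 with the sex term and to 553 with male libraries only, and ranged from 488 to 938 with each library left out. The other normalizations, filterByExpr, DESeq2 and limma-voom gave 2 channel genes each. With the replicate number as a block, 1 channel gene and 770 genes passed, Trpm8 being lost (adjusted p = 0.0702, edgeR with Benjamini-Hochberg adjustment). The numbers did not pair the libraries, as deviations of same-numbered libraries correlated at -0.134, -0.0095 and -0.116.

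The direction of Trpv1, Trpv2, Trpv3, Trpv4, Trpa1, Trpm2 and Trpm8 was the same in every alternative fitted. Trpm3 turned to -0.0028 with the sex term and -0.0046 with male libraries only. Trpm4 turned to 0.0241 with the sex term and 0.0227 with male libraries only, and ranged from -0.15 to 0.05 with each library left out, positive at 0.0513 without control replicate 1, at 0.0539 without Tlx3cko replicate 2 and at 0.0143 without Tlx3cko replicate 3. The cause was not tested. Trpv3 was not fitted under filterByExpr, which removed it. Depth limits Trpv3, with at most 10 counts in a library.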
